A study of Mus musculus with 12 samples.

Results

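The 9 genes described here serve adipocyte lipid storage: Adipoq, Fabp4, Lpl, Cd36, Pparg, Scd1, Cidec, Lipe and Lep. They were taken by gene symbol from the 45281 probes of the array, on which they hold 14 probes. Of these, 8 probes for 7 genes are among the 21004 probes of the normalized table, and Fabp4 and Cd36 have probes only outside it. Illumina mouse BeadChips measured the RNA of 12 hip cartilage samples, 3 in each of 4 groups. All mice were on the C57BL6 background and 4 to 6 weeks old per the labels, and were WT or carried the Mapk9 knockout (Mapk9 KO), which lacks the kinase JNK2. Cartilage was avulsed from the hip in all groups, as the methods read. Control cartilage was then frozen at once, while injured cartilage was kept in serum-free culture for 4 h, so that the response to injury and that to culture cannot be told apart. Each replicate pooled the hips of several mice, and p-values therefore measure the spread between pools.

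A white adipocyte takes up fatty acids that lipoprotein lipase frees from circulating triglyceride, carries them with fatty acid binding protein, esterifies them and keeps the product in a lipid droplet. The nuclear receptor PPAR gamma drives transcription of most of these genes, hormone-sensitive lipase opens the store again, and the cell reports its state with the hormones adiponectin and leptin. Cartilage is not a fat depot, but fat lies within and around the joint, and several of these genes are also transcribed in other cells. Whether the values below came from adipocytes was not tested. In bulk tissue, fewer cells of a type and less RNA per cell cannot be told apart.

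Each value rests on hybridization to a probe of 50 bases, of which the first 30 are printed 5′ to 3′ from the normalized table, without capitals, to show what was read for the member genes with a result. Adiponectin is listed there under its old symbol, Acdc, and was matched through its accession and the symbol of the intensity file.
Lpl ILMN_2692723: gtgctaactttgtgtccgtctccatccatg
Scd1 ILMN_1237375: ccagtcaaagtgcaagactacctacccact
Cidec ILMN_1222679: gaggtgtgcgagagagtgttagaggtggag
Pparg ILMN_1221060: gatgacagacctcaggcagatcgtcacaga
Adipoq ILMN_2738082: gactgcaactacccatagcccatacaccag
Lep ILMN_2695964: cctgagcctttcgctcagagaaccttgcac
Lipe ILMN_3111326: aacttgagacagtaagtggggcgggacagg
Lipe ILMN_2742636: agccaaggtgtcctccacatgcccctctac

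Detection set the limits of what could be compared. A probe counts as detected on an array when its deposited detection p-value is under 0.05. Adipoq, Lpl, Pparg and Scd1 were detected on all 12 arrays. Lep was detected on 4 arrays, Cidec on 2 and each Lipe probe of the normalized table on 1. The probe of Fabp4, the fatty acid carrier of the adipocyte cytoplasm, was detected on 0 of 12 arrays, with signals of 93.09 to 144.9 and detection p-values of 0.396 to 0.948. The probe of Cd36, a fatty acid receptor of the cell surface, was likewise detected on 0 of 12 arrays (signals of 95.51 to 163.1, detection p-values of 0.312 to 0.98). Of the other 4 probes outside the table, those of Pparg and Lipe were detected on none and the second Lpl probe on 1, that of Mapk9 KO control replicate 3, where its detection value was 0.0491. A probe at background does not show that its gene was silent.

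Depth was similar across the arrays. Between 16930 and 18969 probes were detected per array, and array medians lay between 7.55 and 7.70 on the log2 scale. The number of arrays, 3 a group, limits the precision. Both Mapk9 probes were lower in Mapk9 KO control than in WT control arrays, with log2 differences of -1.57 and -2.67 (limma, adjusted p = 0.0151 and 0.00244). Injured arrays were not compared in this way. The labels also carry a code whose meaning is not given. Its number was 1, 1 and 2 for WT replicates 1 to 3, in control and injured groups. For Mapk9 KO replicates it was 1, 2 and 2, so it is uneven between genotypes. Markers of other cell types moved with injury as well. Of 12 skeletal muscle markers, 10 were called lower in WT and 12 in Mapk9 KO, and their summed level lay between 15.64 and 16.33 in WT control, 12.93 and 14.77 in WT injured, 16.58 and 17.11 in Mapk9 KO control and 13.33 and 14.47 in Mapk9 KO injured arrays. Myh4 and Casq1 were undetected on all WT injured arrays and Casq1 on all Mapk9 KO injured arrays. Of 9 macrophage markers, 7 were called lower and 1 higher in WT, and 8 lower and 1 higher in Mapk9 KO, while their summed level lay between 13.28 and 13.89 on control and 13.66 and 14.16 on injured arrays. Of 9 chondrocyte markers with a probe, 6 were called higher and 1 lower in WT and 7 higher in Mapk9 KO, with sums of 15.07 to 15.97 on control and 16.17 to 16.61 on injured arrays. Of 7 osteoblast markers, 2 were called lower in WT and 3 in Mapk9 KO. Among 9 endothelial markers 1 was called higher in WT, and among 5 erythroid markers with a probe 0 were called. The part of these cell types, or of other tissue left on the cartilage, in the results below was not tested.

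The member genes that passed the test were all lower after injury. Past a fold change of 2 and an adjusted p of 0.05, 1 of the 4 genes detected on all 12 arrays fell in WT (Lpl) and 3 in Mapk9 KO (Lpl, Adipoq and Scd1), while 0 rose. The fitted values of Cidec in both genotypes and of Lep in Mapk9 KO also passed, which makes 2 and 5 of 7 genes. Both genes were undetected on every injured array and above background through control arrays alone, so their direction is no separate support, and Cidec has no bound above 1 in WT. Over all 14339 genes of the table, 8.56% were called lower in WT and 10.8% in Mapk9 KO. The changes of the 4 genes detected on all arrays ran from -1.87 (Lpl) to -0.23 (Pparg) in WT and from -2.84 to -0.86 in Mapk9 KO. The 7 main probes, the brightest of each gene, include those of Cidec, Lep and Lipe, undetected on every injured array. The median change of all 7 was -0.66 in WT and -1.68 in Mapk9 KO, beside a median of -0.02 over all probes in each genotype. It was -0.27 in WT without WT control replicate 3, and -1.15 in Mapk9 KO without Mapk9 KO control replicate 3 or -0.91 with quantile normalization without background correction. Among the 4 genes detected on all arrays, every injured array was below every control array for 2 in WT (Lpl and Adipoq), beside 24.6% of all genes, and for 4 in Mapk9 KO, beside 29.4%.

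**Figure D1:**
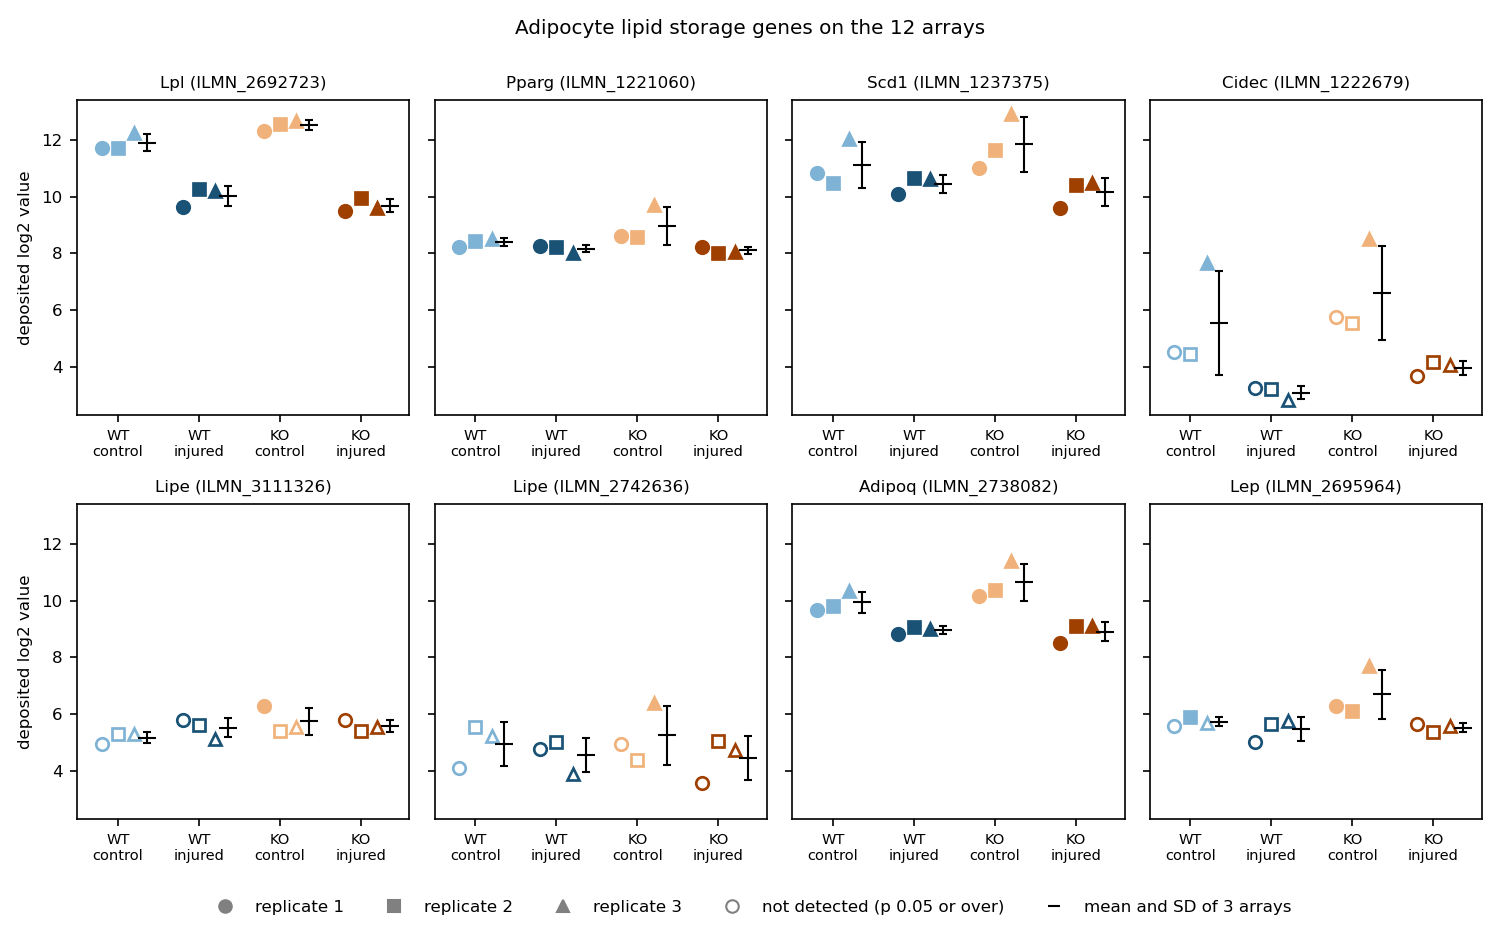
Deposited log2 value (vertical axis) of each of the 8 member probes in the normalized table, by group, with 1 point per array, the shape giving the replicate number and open points arrays on which the probe was not detected. The black mark and bar give the mean and SD of 3 arrays. Lpl lies at 11.73 or higher on every control array and at 10.30 or lower on every injured array. Control replicate 3 is the highest array of Cidec, Scd1, Adipoq, Lpl and Pparg in both genotypes.

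Lpl encodes lipoprotein lipase, which frees fatty acids for uptake at the vessel wall. In WT it read 11.73, 11.75 and 12.27 in control replicates 1 to 3 and 9.65, 10.30 and 10.19 in injured replicates 1 to 3. In Mapk9 KO it read 12.34, 12.58 and 12.69 in control and 9.52, 9.95 and 9.62 in injured arrays. The control and injured arrays were apart in both genotypes, with a gap wider than the spread within any group. Lpl fell by 1.87 on the log2 scale in WT (SE 0.25, limma, adjusted p = 0.000534, n = 3 a group) and by 2.84 in Mapk9 KO (SE 0.19, adjusted p = 1.38e-06), that is 3.66-fold and 7.15-fold. It was the member whose call was kept under every alternative run in both genotypes.

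Pparg encodes the nuclear receptor of fat cell differentiation. It read 8.24, 8.45 and 8.51 in WT control and 8.25, 8.21 and 8.03 in WT injured arrays, which overlap. It read 8.61, 8.57 and 9.73 in Mapk9 KO control and 8.25, 8.03 and 8.06 in Mapk9 KO injured arrays, which do not. The difference was -0.23 in WT (SE 0.19, limma, adjusted p = 0.418) and -0.86 in Mapk9 KO (SE 0.29, adjusted p = 0.0358), under the fold limit in both. The Mapk9 KO change passed that limit without control replicate 1 (-1.04) or control replicate 2 (-1.06). Without both control arrays of replicate number 3 the Mapk9 KO value was -0.48.

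Scd1 encodes stearoyl-CoA desaturase, which makes the monounsaturated fatty acids that are stored. In WT it read 10.83, 10.49 and 12.05 in control and 10.09, 10.68 and 10.63 in injured arrays. In Mapk9 KO it read 11.01, 11.64 and 12.92 in control and 9.60, 10.44 and 10.50 in injured arrays. The WT groups overlap, and control replicate 3 is the highest array of its group in both genotypes. Scd1 fell by 1.68 in Mapk9 KO (SE 0.42, limma, adjusted p = 0.00923), while the WT difference of -0.66 (SE 0.37, adjusted p = 0.223) did not pass. The Mapk9 KO call was lost with the methods' t-test (adjusted p = 0.132), and without both control arrays of replicate number 3 the values were -1.15 in Mapk9 KO and -0.20 in WT.

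Cidec encodes a protein of the droplet surface that lets droplets fuse and grow. It read 4.51, 4.45 and 7.65 in WT control, 3.25, 3.19 and 2.81 in WT injured, 5.76, 5.53 and 8.52 in Mapk9 KO control and 3.68, 4.15 and 4.04 in Mapk9 KO injured arrays. Only control replicate 3 of each genotype was above the detection limit, so the other values are at background and have no order. On the fitted values limma called the gene lower in WT (mean 5.54 to 3.08, adjusted p = 0.0259) and in Mapk9 KO (6.60 to 3.96, adjusted p = 0.00638). Against the lowest signal of a detected probe, Cidec was at least 1.68-fold lower after injury in Mapk9 KO, and no bound above 1 could be given in WT. The Mapk9 KO bound rests on control replicate 3, without which no control array was detected and the fitted difference went from -2.65 to -1.68. The call was lost in both genotypes with normexp background correction and quantile normalization (adjusted p = 0.198 in WT and 0.0697 in Mapk9 KO), with quantile normalization alone (0.144 and 0.0506) and with the methods' t-test (0.213 and 0.125), over a range of adjusted p of 0.00258 to 0.29 in WT and 0.000263 to 0.142 in Mapk9 KO. In WT it was also lost without any 1 of the 3 injured arrays (adjusted p = 0.0585, 0.0584 and 0.0719 without replicates 1, 2 and 3), and without WT control replicate 3 the fitted difference went from -2.46 to -1.40.

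Lipe encodes hormone-sensitive lipase, which breaks down stored lipid. Its ILMN_3111326 probe lay between 4.93 and 6.28 and its ILMN_2742636 probe between 3.56 and 6.39 on all 12 arrays, each detected on 1 Mapk9 KO control array. Control and injured arrays overlapped in both genotypes for both probes. The differences were 0.34 and -0.39 in WT and -0.16 and -0.80 in Mapk9 KO, and adjusted p ran from 0.23 to 0.646 (limma).

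Adipoq encodes adiponectin, a hormone made by fat cells. In WT it read 9.67, 9.83 and 10.36 in control and 8.82, 9.08 and 8.99 in injured arrays. In Mapk9 KO it read 10.17, 10.39 and 11.40 in control and 8.53, 9.11 and 9.11 in injured arrays. Every control array was above every injured array, and control replicate 3 was the highest in both genotypes. Adipoq fell by 1.74 in Mapk9 KO (SE 0.31, limma, adjusted p = 0.00116), a 3.35-fold change. In WT the difference of -0.99 (SE 0.23, adjusted p = 0.0108) was 1.99-fold, just under the fold limit. It passed that limit with normexp and quantile normalization (-1.03) and without WT control replicate 1 (-1.13), WT control replicate 2, WT injured replicate 2 or WT injured replicate 3. Without both control arrays of replicate number 3 the values were -0.79 in WT and -1.37 in Mapk9 KO, of which the second was still called. With the methods' t-test the Mapk9 KO call was lost (adjusted p = 0.0528).

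Lep encodes leptin, which signals the size of the fat store. It read 5.59, 5.90 and 5.68 in WT control and 4.99, 5.66 and 5.76 in WT injured arrays, which overlap. It read 6.28, 6.10 and 7.70 in Mapk9 KO control and 5.63, 5.35 and 5.58 in Mapk9 KO injured arrays, which do not. Lep was detected on all Mapk9 KO control arrays, on WT control replicate 2 and on no injured array. It was at least 1.78-fold lower after injury in Mapk9 KO (mean 6.69 to 5.52, limma, adjusted p = 0.0236), or 1.26-fold without control replicate 3. The WT difference was -0.25 (SE 0.24, limma, adjusted p = 0.487). The Mapk9 KO call was lost without control replicate 3 (fitted difference -0.67 in place of -1.17), without injured replicate 2 (adjusted p = 0.0666) and without injured replicate 3 (adjusted p = 0.0526). It was also lost with quantile normalization without background correction (-0.50) and with the methods' t-test (adjusted p = 0.176).

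**Figure D2:**
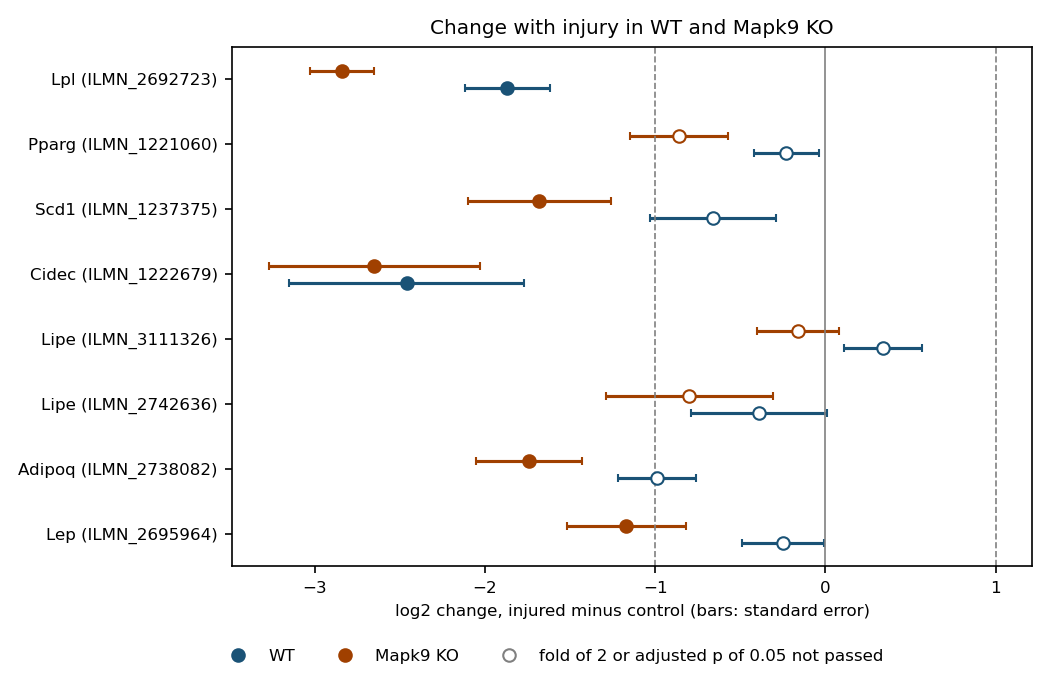
Fitted log2 change with injury (horizontal axis, injured minus control) of the 8 member probes in WT (blue) and Mapk9 KO (orange), with bars for the standard error and filled points past the threshold. Cidec and Lep were undetected on all injured arrays, so their points are fitted differences and not bounds. Of the 8 probes, Lpl has the largest change relative to its error, -1.87 in WT and -2.84 in Mapk9 KO.

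Over both genotypes together, the average injury effect was called for 4 of 7 genes, beside 9.26% of all genes called lower. These were Lpl (-2.36, SE 0.16, limma, adjusted p = 3.62e-08), Cidec (adjusted p = 0.00167, undetected on all injured arrays), Adipoq (-1.37, SE 0.21, adjusted p = 9.03e-05) and Scd1 (-1.17, SE 0.32, adjusted p = 0.00833). Lep and Pparg had an adjusted p of 0.0245 and 0.0232 under a fold of 2. Scd1 was no longer called without WT control replicate 3 (-0.94), without Mapk9 KO control replicate 3 (-0.90) or without both (-0.67), and the average call of Cidec was lost with quantile normalization (-0.77).

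In control cartilage, the 4 genes detected on all 12 arrays had a higher mean in Mapk9 KO than in WT control arrays. The differences were 0.62 for Lpl, 0.57 for Pparg, 0.73 for Scd1 and 0.71 for Adipoq. Without Mapk9 KO control replicate 3 they were 0.54, 0.19, 0.20 and 0.33. The median over all 7 main probes, those near background included, was 0.71, beside -0.01 over all probes. It was 0.33 without Mapk9 KO control replicate 3 and 0.48 with the label code number fitted as a block. However, 0 of 7 genes passed the test (limma), beside 0.160% of all genes. Lpl (0.62, SE 0.23) and Lep (0.97, SE 0.37) were the 2 member probes with an unadjusted p under 0.05, at adjusted p of 0.67 and 0.69. The methods' t-test with Benjamini-Hochberg adjustment also called 0. Every Mapk9 KO control array was above every WT control array for 2 of the 4 genes detected on all 12 arrays, Lpl and Pparg, beside 5.80% of all genes, and the genotypes overlapped for Adipoq and Scd1. Most WT control values of Lep, Cidec and Lipe were at background and were not ranked. The summed level of the muscle markers given above was also higher in Mapk9 KO control than in WT control arrays.

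Whether injury acted differently in the genotypes was tested with the interaction. The fitted change was lower in Mapk9 KO than in WT for the 4 genes detected on all arrays. The differences were -0.97 for Lpl, -1.02 for Scd1, -0.75 for Adipoq and -0.62 for Pparg. Without Mapk9 KO control replicate 3 they were -0.89, -0.49, -0.38 and -0.24. Cidec, Lep and Lipe were undetected on every injured array, so their sign is no separate support. With them included, the median difference of the 7 main probes was -0.75. Without Mapk9 KO control replicate 3 that median was -0.41 and Cidec had the opposite sign, as it did without WT control replicate 1 or 2. In the fit of all arrays 0 of 7 genes passed (limma over 12 arrays), and 0% of all genes did. The smallest p among the members was that of Lpl, with a Mapk9 KO minus WT difference in change of -0.97 (SE 0.31, unadjusted p = 0.00774, adjusted p = 0.348). It was the only member probe with an unadjusted p under 0.05, of 2088 among all 21004 probes. The larger number of calls in Mapk9 KO is therefore not shown to be a difference between genotypes.

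Same-numbered arrays moved together across the groups. For Adipoq, Scd1, Lpl and Pparg, control replicate 3 was the highest array of its group in both genotypes. The injured minus control difference of Adipoq was -0.85, -0.75 and -1.37 for replicates 1 to 3 in WT and -1.65, -1.28 and -2.30 in Mapk9 KO. That of Scd1 was -0.74, 0.18 and -1.42 in WT and -1.41, -1.20 and -2.42 in Mapk9 KO. That of Lpl was -2.09, -1.45 and -2.08 in WT and -2.82, -2.63 and -3.06 in Mapk9 KO. The adipocyte marker list, which shares members with this gene set, had its highest summed level on control replicate 3 in each genotype, 12.80 in WT and 13.82 in Mapk9 KO, where the remaining control arrays lay at 11.26 to 11.86 and 12.27 to 12.38 and every injured array at 9.08 to 10.09. Of its 8 genes, 6 have a probe in the table, and most of the sum came from Cfd and Adipoq. In WT 2 were called lower (Cfd and Cidec), beside 8.56% of all genes. In Mapk9 KO 4 were (Adipoq, Cfd, Cidec and Lep), beside 10.8%. Cidec, Lep, Plin1 and Lipe were undetected on every injured array, so the direction of Cidec and Lep is no separate support.

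**Figure D3:**
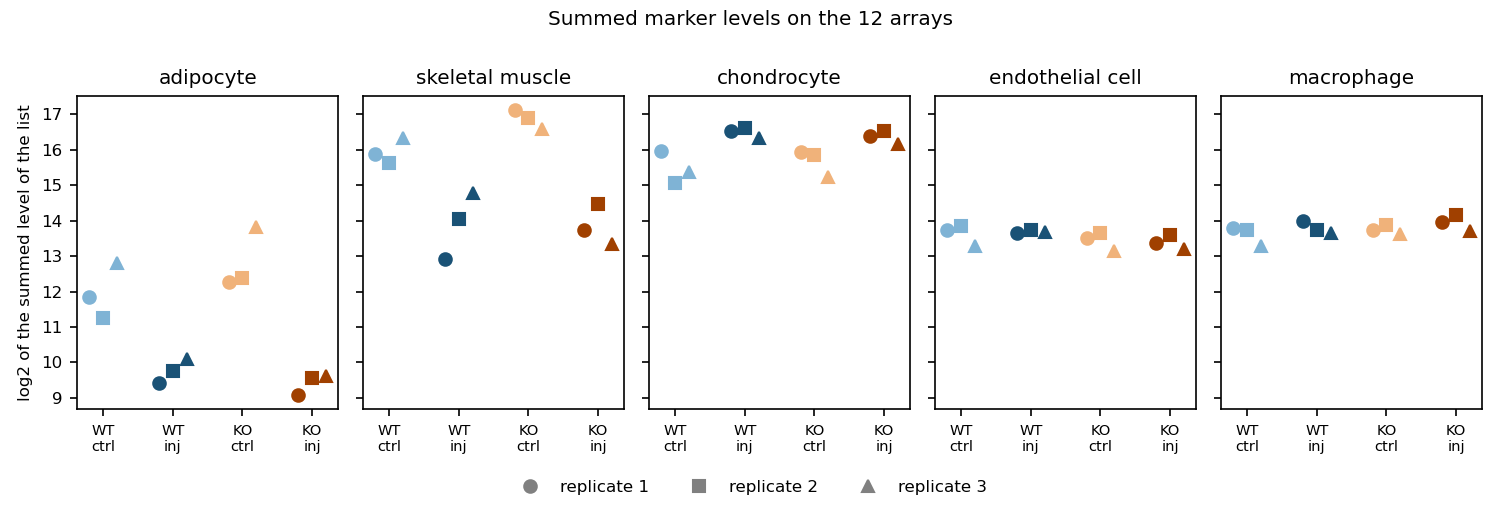
Log2 of the summed linear level (vertical axis) of 5 marker lists on each of the 12 arrays, by group, with the shape giving the replicate number. The adipocyte sum, mostly Cfd and Adipoq, is at 11.26 or higher on control and at 10.09 or lower on injured arrays. The muscle sum is also lower on every injured array. The endothelial and macrophage sums lie within 13.14 to 14.16, although 7 of 9 macrophage markers were called lower in WT and 8 in Mapk9 KO.

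The genes most like Adipoq over the 12 arrays were looked for among the 12555 main probes detected on at least 6 arrays. The 5 highest Pearson correlations, given as a description, belonged to a pancreatic-type amylase (Amy2 in the table, Amy2b by its accession, one of several near-identical genes, r = 0.98), Sncg, which encodes a synuclein (0.97), Pex11a, a peroxisome protein (0.97), Mrap, a melanocortin receptor partner (0.97), and Stradb, a pseudokinase (0.96). All points share the split between control and injured arrays. Within the 6 control arrays these correlations were 0.95 to 0.97. Within the 6 injured arrays they were 0.71 for Amy2b, 0.26 for Pex11a and 0.40 for Stradb. None is given there for Sncg and Mrap, which were mostly undetected. Amy2b read 8.39 to 10.40 on control and 6.55 to 7.45 on injured arrays, and Mrap 5.99 to 8.84 and 4.57 to 5.31. Mrap was detected on 0 and Sncg on 2 of the 6 injured arrays, so both met the detection limit mainly through the control arrays, where they were high. Of the members detected on all arrays, Scd1 had r = 0.94 with Adipoq over 12 arrays, Lpl 0.93 and Pparg 0.87. Within the 6 control arrays these were 0.94, 0.86 and 0.95, and within the 6 injured arrays 0.94, 0.59 and -0.67. Cidec, Lep and Lipe were undetected on all 6 injured arrays, and no correlation is given for them.

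The promoters of the member genes were read from RefSeq (build GRCm38.p6). The table holds 10 promoters for 6 of the 9 genes, and Fabp4, Lpl and Scd1 have no entry in it. The 250 bases before the start are printed for the hormone genes Adipoq (chr16:23146286-23146535, plus strand) and Lep (chr6:29059971-29060220, plus strand), 5′ to 3′, with capitals marking matches to the motifs searched on both strands. These were the CCAAT box, the TTGCNNAA pattern of C/EBP factors, the nuclear receptor half-site AGGTCA, the E-box CACGTG and the TATA box, spelled TATAAA. In these promoters no motif overlaps another.
Adipoq promoter: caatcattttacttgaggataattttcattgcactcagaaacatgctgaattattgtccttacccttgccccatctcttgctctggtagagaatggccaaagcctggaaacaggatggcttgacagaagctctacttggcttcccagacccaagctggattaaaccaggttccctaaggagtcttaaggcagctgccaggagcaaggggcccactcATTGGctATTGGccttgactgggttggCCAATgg
Lep promoter: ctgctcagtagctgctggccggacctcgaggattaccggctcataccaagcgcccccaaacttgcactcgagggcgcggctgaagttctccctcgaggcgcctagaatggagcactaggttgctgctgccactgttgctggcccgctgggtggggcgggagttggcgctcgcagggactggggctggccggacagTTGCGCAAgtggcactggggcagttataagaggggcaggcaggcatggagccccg
CCAAT was found in 4 of the 10 member promoters, beside 33.8% of all 32851 promoters of the same length. The TTGCNNAA pattern was in 3 of 10 (9.56% of all), and the half-site AGGTCA in 3 of 10 (14.0%). The E-box and the TATA box were each in 1 of 10 (6.02% and 12.4% of all). Promoters of 1 gene are not independent, and a match is no evidence of a bound site.

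To place the members among other genes of fat storage, 87 further genes in 8 lists were read from the same fits. Of the 76 with a probe in the table, 16 were called higher and 11 lower in WT, and 15 higher and 19 lower in Mapk9 KO. Over all genes, 8.72% were called higher in WT and 11.0% in Mapk9 KO. Their median change was -0.01 in WT and -0.10 in Mapk9 KO, beside -0.02 over all probes in each genotype.

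In triglyceride synthesis, 4 of 9 genes rose in WT (Dgat1, Dgat2, Mogat2 and Agpat2) and 3 in Mapk9 KO, where Gpd1 and Agpat3 fell. Dgat1, which adds the last fatty acid of triglyceride, read 7.71, 8.24 and 8.13 in WT control and 11.51, 11.60 and 11.67 in WT injured arrays, a rise of 3.57 (SE 0.21, limma, adjusted p = 3.93e-06), and it rose by 3.69 in Mapk9 KO (SE 0.24). Dgat2, a second enzyme for that step, rose by 2.59 in WT (SE 0.45) and 1.62 in Mapk9 KO (SE 0.46), and its control replicate 3 arrays were high (10.13 and 11.08 beside 7.97 to 9.20). Without the control replicate 3 array of the genotype these rises were 3.23 and 2.27, and with it the Mapk9 KO groups overlapped, with a difference of -0.15 in the replicate 3 pair. Mogat2, which acylates monoglyceride, rose by 3.97 and 3.20, and was detected on 1 of 3 WT control arrays. Of 12 droplet coat and structure genes, 2 rose and 1 fell (Fitm1) in WT, and 2 rose and 4 fell in Mapk9 KO (Cidea, Fitm1, Plin4 and Plin5). Plin2, the coat protein of most cells, was 1 of those that rose, by 1.59 in WT (SE 0.23) and 1.91 in Mapk9 KO (SE 0.31), and Hilpda, which inhibits lipolysis, rose by 2.89 and 3.06. Of 8 lipolysis genes, G0s2, an inhibitor of adipose triglyceride lipase, rose by 3.93 (SE 0.27) and 3.26 (SE 0.18), and Mgll, which cleaves monoglyceride, fell by 1.04 and 1.35.

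Of 6 genes for adipocyte secreted proteins in the table, 2 rose and 1 fell in WT, and 1 rose and 1 fell in Mapk9 KO. The gene that fell was Cfd, the adipocyte protein adipsin. It read 11.45, 10.45 and 12.41 in WT control and 6.85, 7.65 and 8.88 in WT injured arrays. In Mapk9 KO it read 11.80, 11.89 and 13.43 in control and 5.02, 6.58 and 6.87 in injured arrays. The groups were far apart, although Mapk9 KO injured replicate 1 was not above the detection limit, so that the Mapk9 KO value rests partly on background. The fitted changes were falls of 3.65 in WT (SE 0.54, limma, adjusted p = 0.00107) and 6.21 in Mapk9 KO (SE 0.51, adjusted p = 5.71e-06), and the interaction had an adjusted p of 0.377. Plin1, the coat protein of adipocyte droplets, was detected on 1 array, Mapk9 KO control replicate 3, with differences that did not pass (limma, adjusted p = 0.474 in WT and 0.249 in Mapk9 KO). Retn, which encodes resistin, has a probe only outside the table and was detected on 0 of 12 arrays. Cidea, a relative of Cidec, was at least 7.46-fold lower after injury in Mapk9 KO (limma, adjusted p = 0.00207), or 3.28-fold without control replicate 3, and its WT difference did not pass (adjusted p = 0.0999). Its control values were 6.88, 5.54 and 10.21 in WT and 7.53, 7.61 and 11.13 in Mapk9 KO, again highest in replicate 3.

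Among uptake genes, 1 of 11 rose and 3 fell in each genotype. Of these, Aqp7, a glycerol channel called in Mapk9 KO only on fitted values, was detected on 1 of 6 Mapk9 KO arrays on each of its 2 probes and has no bound above 1. Slc27a4, a fatty acid transport protein, rose by 2.57 in WT (SE 0.22) and 2.20 in Mapk9 KO (SE 0.22), while Slc27a1 fell by 1.48 and 1.69. Fabp3, the fatty acid carrier of muscle, fell by 2.32 (SE 0.59) and 4.74 (SE 0.23), the first -1.59 without WT control replicate 3. Among 11 synthesis genes, Acacb, the acetyl-CoA carboxylase of muscle mitochondria, fell by 2.00 in WT (-1.34 without WT control replicate 3, and detected on 1 of 3 WT injured arrays) and was at least 7.51-fold lower in Mapk9 KO. Thrsp, a lipogenic nuclear protein, was at least 8.39-fold lower in Mapk9 KO (limma, adjusted p = 0.00151), or 3.88-fold without control replicate 3. Its fitted WT difference of -1.96 did not pass (limma, adjusted p = 0.0791). Me1, malic enzyme, rose by 1.16 in WT (0.84 and not called on its other probe) and Scd2, a second desaturase, by 1.37 in Mapk9 KO. The droplet protein gene Fitm1 was at least 1.18-fold lower in WT and 4.34-fold lower in Mapk9 KO, of which the WT bound rests on WT control replicate 3, the only WT array on which it was detected. The insulin-dependent glucose transporter gene Slc2a4 was at least 2.33-fold and 4.45-fold lower, the first 1.54-fold without WT control replicate 3. Fabp3, Acacb, Fitm1 and Slc2a4 are strongly transcribed in muscle, of whose 12 markers 10 were called lower in WT and 12 in Mapk9 KO.

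Of 12 adipogenic transcription factors with a probe, 4 rose and 3 fell in WT, and 5 rose and 4 fell in Mapk9 KO. Cebpb, an early factor of fat cell differentiation that also responds to stress, rose by 2.44 (SE 0.19) and 2.32 (SE 0.19), and Klf5 by 2.02 and 1.70. The late factor Cebpa was detected on 2 arrays, with differences of 0.07 in WT and -0.00 in Mapk9 KO. The coactivator genes Ppargc1b (-2.17 in WT, -2.93 in Mapk9 KO) and Ppargc1a (at least 1.90-fold and 3.65-fold lower) fell. The WT bound of Ppargc1a was 1.26-fold without WT control replicate 3, and its WT call was lost without that array (-0.86) and without any 1 of the 3 WT injured arrays (-1.57, -1.29 and -1.51). Of the secreted protein genes that rose, Rbp4, the retinol carrier, was at least 2.33-fold and 2.29-fold higher after injury. Angptl4, an inhibitor of lipoprotein lipase, rose by 1.10 in WT (SE 0.20, limma, adjusted p = 0.00361) beside 0.97 in Mapk9 KO, under the fold limit. The Mapk9 KO rise passed that limit without Mapk9 KO control replicate 3 (1.02). The WT call was lost without all arrays of replicate number 3 (0.99). Of 7 receptor and insulin signal genes, Slc2a4 fell in both genotypes, Irs2 rose by 1.33 in WT beside 0.95 in Mapk9 KO (limma, adjusted p = 0.00121), under the fold limit, and in Mapk9 KO Cdh13, which encodes an adiponectin-binding cadherin, fell by 1.34 on its brightest probe, while its other 2 probes did not pass (-0.87 and -0.42). One Insr probe of 3 rose in Mapk9 KO (1.05, adjusted p = 0.00074), while its brightest probe gave -0.20.

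Several of these calls rest on single arrays or on the processing. In WT, those of Fabp3 and Acacb were lost without injured replicate 1 (-1.91 and -1.82), that of Mgll without control replicate 1 (-0.96), and that of Me1 without control replicate 1 or 2 or injured replicate 2 or 3 (0.84 to 1.20). In Mapk9 KO, the main probe of Aqp7 (-1.10) was lost without control replicate 3 (-0.56), without any 1 injured array (-1.12 to -1.07), with both quantile normalizations and with the methods' t-test, and Dgat2 was lost without control replicate 2 (1.25) or injured replicate 2 (1.46). With quantile normalization without background correction, Fitm1, Slc27a1, Acacb, Me1, Mgll, Ppargc1a, Slc2a4, Rbp4 and Angptl4 were not called in WT, nor Rbp4 and Scd2 in Mapk9 KO. With normexp and quantile normalization, the WT calls of Fitm1, Ppargc1a and Angptl4 were lost. The methods' t-test lost Cfd, Fitm1, Slc27a1, Fabp3, Acacb, Me1, Dgat2, Klf5, Ppargc1a and Slc2a4 in WT and Cidea, Thrsp and Dgat2 in Mapk9 KO.

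**Figure D4:**
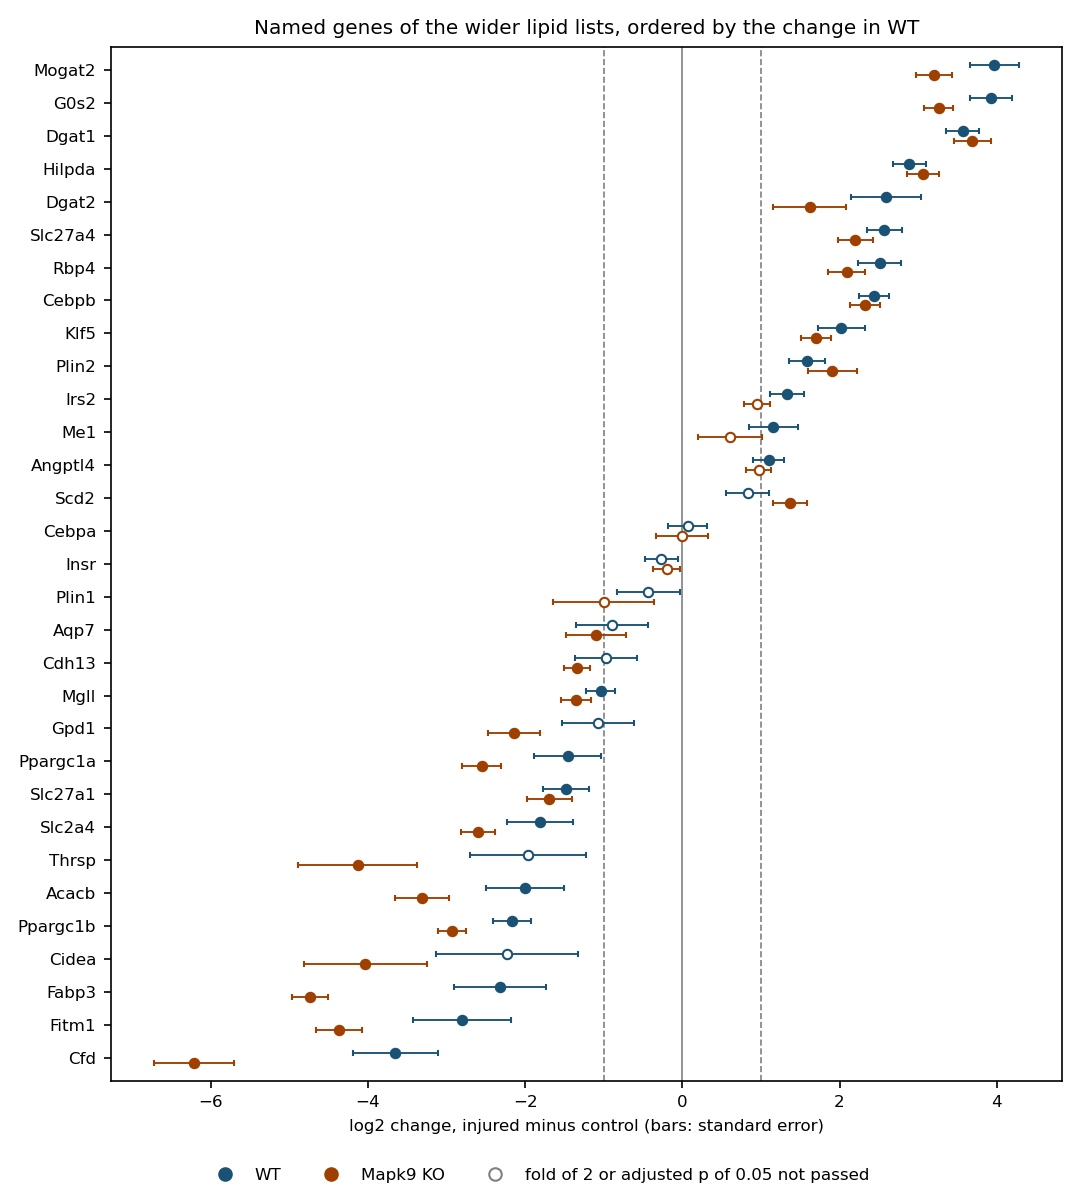
Fitted log2 change with injury (horizontal axis, injured minus control) of the main probe of the named genes from the wider lists, ordered by the WT value, in WT (blue) and Mapk9 KO (orange), with bars for the standard error and filled points past the threshold. G0s2 and Dgat1 lie at 3.26 or more in both genotypes, and Cfd at -3.65 and -6.21. The points of Cidea, Thrsp, Fitm1, Aqp7, Acacb, Slc2a4, Ppargc1a, Rbp4, Plin1 and Cebpa are fitted values with 1 group at background in at least 1 genotype, not bounds, and cannot be ranked against the others.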

How the data were processed

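The log2 values deposited for 21004 probes were made by the authors with the vsn package, after background correction from negative controls. They also deposited the signal intensities of 45281 probes without normalization, and the deposited detection p-values beside them were used with a limit of 0.05. No genome build is named, so no probe coordinates are given. Probes were named through RefSeq accession, symbol, gene ID or older symbol (assembly GRCm38.p6). The member genes, lists and tests were chosen with earlier results of these data known. Named genes of the lists are at most 4 per list past the threshold with the largest WT change, plus Plin1, Cfd, Cebpa and Retn.

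Tests were run in R 4.3.3 with limma 3.58.1 (lmFit, eBayes) on the deposited log2 values, with Benjamini-Hochberg adjustment over all probes, after the code was tested on simulated data. Injury was fitted on the 6 arrays of a genotype, genotype on the 6 control arrays, and the interaction and average effect on all 12 arrays. A gene passed when at least 1 probe changed more than 2-fold at an adjusted p below 0.05 (for the interaction, the adjusted p alone). Where a probe was undetected on a whole group, a bound against the lowest detected signal of each array is printed, while the threshold used the fitted value. A list's summed level is the log2 of summed linear values of main probes. Labels number the replicates 1 to 3 in each group. Deviations from group means correlated at 0.153 to 0.39 in all 18 same-number pairs of arrays and at -0.289 to 0.0825 in the 36 others. Same-numbered arrays thus shared part of their deviation, and what they had in common is not given. The printed standard errors and p-values come from fits without this pairing. With 3 arrays against 3, an exact permutation test cannot go below p = 0.1 and was not used. Alternatives were other normalizations, filters, thresholds, blocks, the methods' t-test and leaving arrays out. The fits without arrays of replicate number 3, and leaving out single arrays for the wider lists, were added after seeing the data.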

Additional observations from a re-analysis of the deposited data

How the results depend on the processing

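With the replicate block the counts of member genes called were 2 in WT, 5 in Mapk9 KO, 4 for the average, and 0 for genotype and interaction, and of wider-list genes 28 and 34 beside 27 and 34 without it, so the pairing changed no count by over 1.5 times. Of member genes in WT, 1 in place of 2 was called with quantile normalization without background correction (also over all probes of the array), with probes detected on at least 3 arrays only, and with the methods' t-test. In Mapk9 KO, 3 in place of 5 were called with quantile normalization, also over all probes, and 1 with the methods' t-test. The wider lists in WT gave 14 with quantile normalization and 13 with the methods' t-test. Leaving out 1 array gave 1 to 3 member genes in WT, 4 to 6 in Mapk9 KO, 3 to 4 for the average, 0 to 0 for genotype and interaction, and 24 to 31 and 32 to 37 wider-list genes.

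Changes of sign were seen only in differences that passed no test. For the Lipe probe ILMN_2742636, genotype in control arrays ran from -0.28 (without Mapk9 KO control replicate 3) to 0.72 when 1 array was left out, and was -0.14 without the arrays of replicate number 3, all or control only. Its interaction ran from -0.83 to 0.17 with 1 array left out and was 0.03 without both control arrays of number 3. Its WT injury difference was 0.09 without all arrays of number 3. The Lipe probe ILMN_3111326 ran from -0.33 to 0.11 for Mapk9 KO injury with 1 array left out. The Cidec interaction ran from -1.25 to 0.77 likewise. Plin1 gave 0.33 in WT and 0.11 in Mapk9 KO without all arrays of number 3, and 0.06 in WT without the control arrays of number 3. The cause was not tested. Signal near background limits what can be said of Cidec, Lep, Lipe and Plin1.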
